A study of Mus musculus with 4 samples.

Results

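The regions described here are PTBP1 eCLIP clusters that lie in the longest protein-coding genes of the mouse genome, those whose annotated span reaches 500000 nt. A cluster was kept when its midpoint fell on chromosomes 1 to 19 in exactly 1 protein-coding span of GRCm38 and that span was at least 500 kb long. The rule used genome position only and no measured fold. It gave 39528 of 376266 clusters in replicate 1 and 41291 of 388894 in replicate 2, or 11.4% and 11.5% of the clusters that lay in exactly 1 protein-coding span. The spans of 216 genes met the minimum and added up to 182 Mb, with a median of 735 kb. The shortest was that of Edil3 at 502 kb and the longest that of Ptprd at 2271 kb, while the longest span left out was that of Dnm3 at 496 kb.

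Whole hearts came from wild-type C57BL/6 mice, for which the labels name no treatment and no age. PTBP1 was immunoprecipitated from 2 lysates of frozen, ultraviolet-crosslinked heart powder (2 immunoprecipitates), and a small portion of each lysate was set aside before the antibody as its size-matched input (2 inputs). Each cluster carries a log2 fold of the immunoprecipitate over its own input and a −log10 p-value, both the authors' values from the authors' deposited tables. Whether these lysates stem from separate animals is not stated in the labels, so differences between replicates may be technical only.

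PTBP1, polypyrimidine tract binding protein 1, binds pyrimidine-rich RNA such as UCUU and is best known as a regulator of alternative splicing that often represses exons. Most of the length of a very long gene is intron, and such introns are known to hold many pyrimidine tracts, cryptic exons and repeats. RNA polymerase needs hours to cross such a gene, so unspliced RNA from its 5′ part is usually more plentiful than RNA from its 3′ part.

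Sequence could be read for clusters that overlap a promoter window of the RefSeq annotation (GRCm38.p6, 250 bases before to 50 after a transcription start), including starts of noncoding genes nested in a long gene. The first sequence is shown because it is the part of a reproducible cluster in Gpc6 that such a window covers, and the others show clusters that were not called enriched, with folds above and below 0. They were chosen after their folds were seen. All are written 5′ to 3′ on the RNA strand with T for U, with each TCTT in capitals, and overlapping matches were counted.

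Gpc6, chr14:117128065-117128364, plus strand: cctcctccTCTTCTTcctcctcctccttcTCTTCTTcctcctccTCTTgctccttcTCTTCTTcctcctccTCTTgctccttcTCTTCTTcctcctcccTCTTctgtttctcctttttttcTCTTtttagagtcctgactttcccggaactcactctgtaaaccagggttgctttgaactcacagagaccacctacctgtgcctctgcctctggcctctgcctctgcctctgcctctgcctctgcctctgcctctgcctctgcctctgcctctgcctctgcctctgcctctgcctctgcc
Foxp1, chr6:99204423-99204539, minus strand: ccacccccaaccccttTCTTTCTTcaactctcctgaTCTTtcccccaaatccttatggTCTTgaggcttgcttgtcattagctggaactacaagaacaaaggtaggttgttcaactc
Pard3b, chr1:61865320-61865441, plus strand: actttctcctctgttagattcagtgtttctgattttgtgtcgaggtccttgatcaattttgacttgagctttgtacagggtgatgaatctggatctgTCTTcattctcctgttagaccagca
Camta1, chr4:151861653-151861700, minus strand: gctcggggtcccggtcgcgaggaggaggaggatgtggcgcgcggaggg

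The Gpc6 window, 300 bases at the start of the nested noncoding gene Gm52112, was 82.3% pyrimidine, with an unbroken pyrimidine run of 48 bases and 12 matches to TCTT. Its replicate 1 cluster had a log2 fold of 5.08, and replicate 2 had 3 adjoining clusters there with folds of 4.54, 3.71 and 3.91. The cluster with a fold of 3.91 covered the last 117 bases of the window. That part was 77.8% pyrimidine but held 0 TCTT, with a longest pyrimidine run of 5 bases. Among the 32841 promoter windows of 300 bases in the table, the median window was 49.7% pyrimidine and held 1 TCTT on its own strand, 69.9% held at least 1, and 0.0579% held as many as the Gpc6 window. Much of this window consists of short units repeated head to tail. How reads that match several places were handled is not given in the sources used here, and the effect of this on the fold was not tested. The Foxp1 cluster, with 4 TCTT in 117 bases of 63.2% pyrimidine, had folds of 2.43 and 2.49 and was not called enriched in either replicate. The Pard3b cluster held 1 TCTT in 122 bases of 60.7% pyrimidine, at folds of 2.68 and 2.12. The Camta1 cluster was 31.3% pyrimidine without a TCTT, and at folds of −2.96 and −2.88 it was depleted from the immunoprecipitates relative to input. These few windows describe themselves and not the other clusters, whose sequence was not used here.

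A cluster was called enriched when its log2 fold and its −log10 p were both at least 3, and reproducible when it also overlapped an enriched cluster of the other replicate on the same strand by at least 1 nt. In the long genes, 2744 clusters of replicate 1 were enriched, which is 6.94% (95% Wilson interval 6.70 to 7.20), and 2078 of replicate 2, which is 5.03% (4.83 to 5.25). Over all clusters of the tables the shares were 6.31% and 4.71%, and over clusters in exactly 1 protein-coding span 6.37% and 4.75%. In genes under 500 kb, 6.29% and 4.72% were enriched. The gap between long and shorter genes, which was under 1 percentage point in each replicate, was smaller than the gap between the replicates. In genes of 100 to 500 kb the share was 6.70% (6.57 to 6.82) and 5.03% (4.92 to 5.13), so its interval overlapped that of the long genes in both replicates. Genes of 20 to 100 kb had 6.15% and 4.59%, and genes under 20 kb had the lowest shares, 4.43% and 3.35%. The intervals cover counting error only and treat clusters as independent. The difference between gene classes was not tested: with 2 lysates, an exact two-sided sign permutation cannot give a p under 0.5.

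The median log2 fold was 0.74 in replicate 1 and 0.62 in replicate 2 in the long genes, against 0.62 and 0.62 in genes under 500 kb. Folds above 0 made up 76.4% and 74.9% of clusters in long genes, and 72.8% and 71.5% in the shorter ones. Clusters were sparser along long genes, at 217 and 226 per Mb of span against 374 and 386 per Mb in genes under 500 kb, and so were enriched clusters, at 15.04 and 11.4 per Mb against 23.5 and 18.2. Enriched clusters in long genes had a median width of 133 and 129 nt, against 68 and 66 nt for those not enriched.

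Most enriched clusters of long genes came back in the other lysate. In replicate 1, 1701 clusters were reproducible, which is 62.0% of the enriched ones (60.2 to 63.8), and in replicate 2 there were 1644, or 79.1% (77.3 to 80.8). Genes under 500 kb gave 62.8% and 78.4%. Counted against all clusters in long genes, these were 1701 of 39528 and 1644 of 41291. As a share of all clusters, 3.98% (14958 of 376266) and 3.72% (14452 of 388894) were reproducible over the whole tables. Over clusters in exactly 1 protein-coding span the shares were 3.99% (13813 of 346035) and 3.73% (13348 of 357825). Over 22257 overlapping pairs in long genes the log2 folds had a Pearson correlation of 0.751 across pairs, which share genes and are not independent. Among the 1701 reproducible replicate 1 clusters and their partners, which the enrichment threshold itself selects, it was 0.28. There the replicate 1 fold was higher by a median of 0.30, with an SD of the difference of 0.88.

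Enrichment was spread unevenly over the 216 genes. At least 1 cluster was found in 210 genes in replicate 1 and in 208 in replicate 2, with a median of 99 and 100.5 per gene and a maximum of 791 and 878 in Auts2, a regulator of transcription in neural development. The density of clusters repeated closely, with medians of 11.6 and 11.7 per 100 kb, and was highest in Cacna1c, the pore subunit of the cardiac L-type calcium channel, at 112 and 117 per 100 kb. A reproducible cluster was found in 105 of the genes, and 57 genes in replicate 1 and 56 in replicate 2 held 10 or more. The 10 leading genes, ranked by replicate 1, held 571 of 1701 reproducible clusters in replicate 1 and 554 of 1644 in replicate 2. When each replicate ranked its own 10 genes, these held 33.6% and 33.9% of the reproducible clusters. The same genes held 15.1% and 15.2% of all clusters in long genes. Touching clusters were counted singly in this ranking, and joining them changes its order. Rora, for example, went from 61 and 49 clusters to 25 and 24 regions, below Rbms3 with 29 in each replicate. Because whole heart was used, a gene transcribed in few cells and a gene transcribed weakly in many cannot be told apart.

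**Figure D1:**
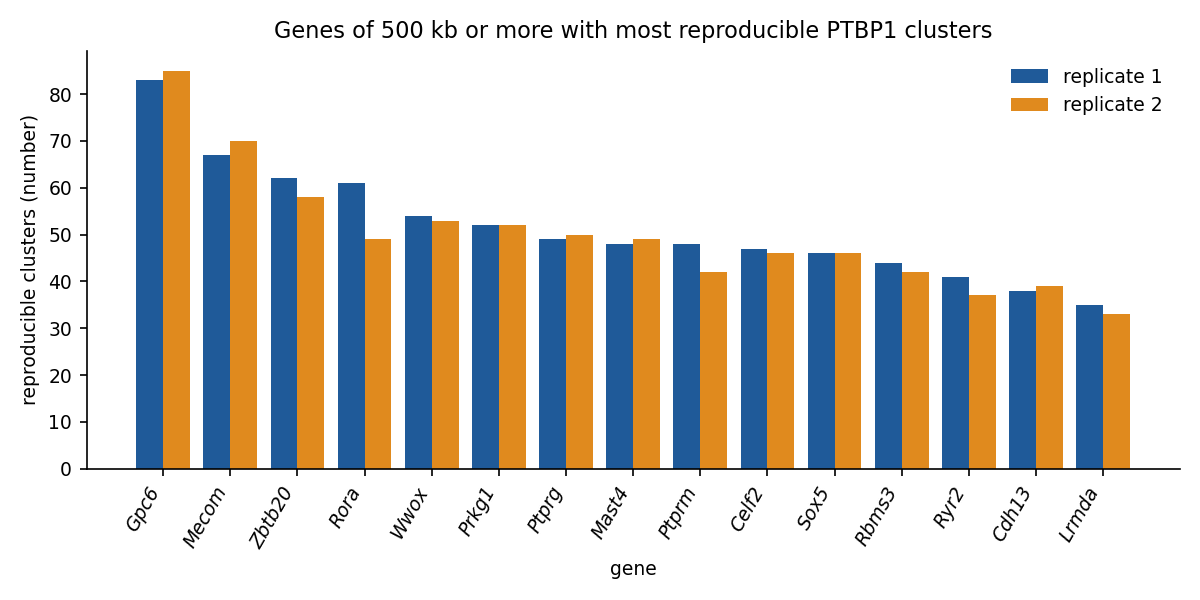
Number of reproducible PTBP1 clusters (y axis) in the 15 long genes with most of them (x axis), with a bar for each replicate. Gpc6 leads with 83 and 85 clusters, and the bars of the 2 replicates differ most in Rora, with 61 and 49.

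Gpc6, a cell surface heparan sulfate proteoglycan of the glypican family, had most, with 83 reproducible clusters in replicate 1 and 85 in replicate 2. In this gene 17.3% and 14.04% of 664 and 748 clusters were enriched. Mecom, a zinc finger transcription regulator known from blood and vascular development, had the highest enriched share of the 123 genes with at least 50 clusters in each replicate, 21.7% of 447 and 16.8% of 494 clusters. It also had the highest density of reproducible clusters, 120 and 125 per Mb of span, against 78.7 and 80.6 in Gpc6. Across those 123 genes the median enriched share was 4.76% and 3.02%, and 9 genes had no enriched cluster in either replicate.

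Transcription regulators were well represented among the leading genes. Of the 17 in the list used here, 14 held a reproducible cluster and 11 held at least 10 in replicate 1. At least 50 clusters in each replicate were present in 16 of the 17. Among all 123 long genes with that many, 99 held a reproducible cluster, so the count of 14 is near the background. In the list 10.1% and 7.70% of clusters were enriched, against 6.94% and 5.03% over all long genes. Without Mecom, its member with most reproducible clusters, the list had 9.15% and 6.93%. Zbtb20, a zinc finger repressor, had 62 and 58 reproducible clusters, and 18.6% and 12.7% of its clusters were enriched. Rora, a nuclear receptor of the circadian clock, had 61 and 49, and Sox5, an HMG box factor of cartilage and neural development, had 46 in each replicate. The low end of the list was Npas3, a neurodevelopmental bHLH-PAS factor, with no enriched cluster among 90 and 63.

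In the list of receptor tyrosine kinases and phosphatases 5 of 9 genes held a reproducible cluster, and 10.1% and 7.33% of clusters were enriched, or 8.87% and 5.67% without Ptprg. Ptprg, a receptor tyrosine phosphatase, had 49 and 50 reproducible clusters, its relative Ptprm had 48 and 42, and Ptprk had 21 in each replicate, whereas Ptprd, a phosphatase best known from synapses, had 5 in each. Among 12 genes of kinase, cyclic nucleotide and phosphoinositide signalling, 11 held a reproducible cluster. All 12 had at least 50 clusters in each replicate, and 99 of the 123 long genes with that many held one. In this list 7.16% and 5.22% of clusters were enriched, close to the share over all long genes, or 6.53% and 4.44% without Prkg1. The cGMP-dependent kinase Prkg1 led them with 52 in each replicate. Mast4, a microtubule-associated serine/threonine kinase, had 48 and 49, and the cAMP phosphodiesterase Pde4d had 22 and 20.

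Each of the 5 long members of the list of RNA-binding and splicing regulators held a reproducible cluster. At least 50 clusters in each replicate were present in 4 of them, and 99 of the 123 long genes with that many held one. In this list 9.23% and 5.92% of clusters were enriched, or 7.29% and 4.65% without Celf2. That list also holds Vps13b, a vesicle transport gene that does not belong there by function, with 5 and 7 reproducible clusters among 291 and 299. Celf2, a splicing regulator of the CELF family, had 47 and 46, Rbms3, a single-stranded RNA-binding protein, had 44 and 42, and Rbfox1, a splicing regulator of heart, muscle and brain, had 12 in each replicate. Khdrbs2, an RNA-binding protein of the STAR family, had only 4 and 2 clusters in all.

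Matrix, proteoglycan and guidance genes had 9.64% and 7.87% of clusters enriched, with a reproducible cluster in 6 of 13 genes. Without Gpc6 the list had 6.86% and 5.40%, close to the share over all long genes. Lama2, a laminin chain of the muscle basement membrane, had 23 and 22 reproducible clusters. Lrmda, with 35 and 33, is a melanocyte differentiation gene that does not belong in the list by function. The list of cytoskeleton, junction and dystrophin complex genes was near the background at 6.03% and 4.08%, with a reproducible cluster in 22 of 28 genes. Its members included the junction scaffold Magi1 with 26 and 23 (its relative Magi2 had 19 and 14), and Ank2, the ankyrin that anchors cardiac ion transporters, with 25 and 22. Channel and calcium handling genes stood at 5.00% and 4.29%, with a reproducible cluster in 7 of 16. In this list Ryr2, the calcium release channel of the cardiac sarcoplasmic reticulum, had 41 and 37 reproducible clusters, Cacna1c had 19 and 22, and Fgf14, an intracellular modulator of sodium channels, had 14 and 13. Metabolic enzyme genes stood at 5.41% and 3.69%, with a reproducible cluster in 11 of 16, led by Wwox, the sialyltransferase gene St6galnac3 with 29 and 26, and the mitochondrial peptidase gene Immp2l with 15 in each replicate.

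Cell adhesion and synaptic genes lay below the background. Of 39 long genes for adhesion receptors, 9 held a reproducible cluster, and 3.93% and 2.64% of their clusters were enriched. Over all 216 long genes 105 held a reproducible cluster, and 123 had at least 50 clusters in each replicate. Among the adhesion genes only 16 of 39 had that many clusters, so many of them offered few clusters to call. Cdh13, a GPI-anchored cadherin of vessels and heart, was the leading member with 38 and 39, followed by the neural adhesion genes Lsamp with 15 and 13 and Pcdh9 with 13 and 11. Of 26 synaptic receptor and scaffold genes 7 held a reproducible cluster, with 3.94% and 2.51% of clusters enriched. Only 9 of these 26 had at least 50 clusters in each replicate. Sdk1 and Kirrel3, adhesion receptors of the immunoglobulin superfamily, had no enriched cluster among 210 and 229 clusters and among 101 and 115 clusters. The same held for Sntg1, a neuronal syntrophin, with 117 and 98, and Astn2, a gene of neuronal migration, with 95 and 89. As a check of the tissue, clusters were counted in marker genes. Neuron markers had clusters in 3 of 4 genes (13 clusters in replicate 1 and 11 in replicate 2, with 0 in Rbfox3). Cardiomyocyte markers had them in 6 of 6 (625 and 651), but Ryr2, itself a long gene, held 524 and 534 of these. All 4 markers had clusters for each of fibroblasts (72 and 72), endothelium (234 and 243), pericytes and smooth muscle (156 and 178) and macrophages (137 and 134). These totals are not scaled to gene length. How far cell types move the share in adhesion and synaptic genes was not tested.

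The enriched share of a gene went with its density of clusters. When the 123 genes were ordered by clusters per 100 kb, the densest 41 had 9.66% and 7.55% of clusters enriched, the middle 41 had 5.56% and 3.20%, and the sparsest 41 had 1.84% and 1.09%. Among the sparsest 41, 9 genes in replicate 1 and 21 in replicate 2 had no enriched cluster. Across genes the Spearman correlation of density and enriched share was 0.81 in each replicate, and 0.83 and 0.80 when the density was taken from the other replicate's table. Density and share come from the same libraries, the number of reads per gene is unknown, and the part of depth in this relation was not tested. Cacna1c shows how far a gene can depart from it, with the highest density and 4.67% and 4.61% of clusters enriched. Span length showed a weaker relation of the opposite sign, with a Spearman correlation of −0.23 and −0.31 over the same 123 genes. The 5 longest of these genes all had few reproducible clusters for their span: Lsamp had 15 and 13, Ptprd 5 in each replicate, Dlg2 3 and 2, Macrod2 1 in each, and Csmd1, a large complement control protein of neurons, 2 and 1 among 175 and 173 clusters.

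**Figure D2:**
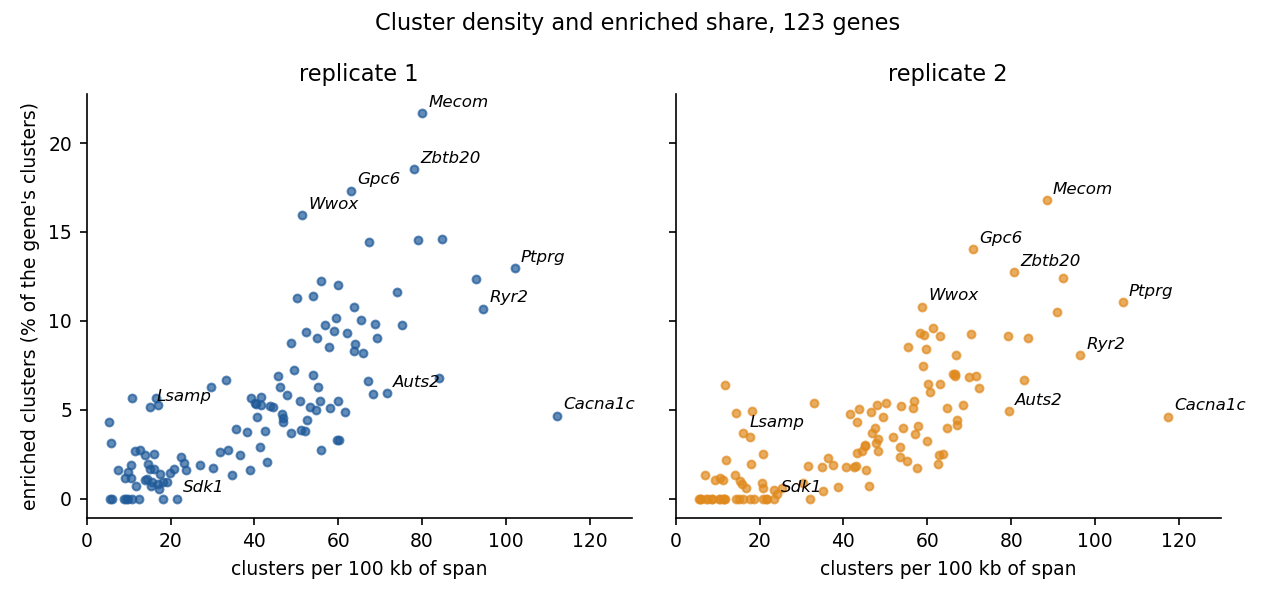
Enriched share of a gene's clusters in percent (y axis) against its clusters per 100 kb of span (x axis), one point per gene for the 123 genes with at least 50 clusters in each replicate, one panel per replicate. Mecom, Zbtb20, Gpc6 and Wwox lie above genes of similar density, and Cacna1c lies far to the right with 4.67% and 4.61% enriched.

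Wwox, the WW domain oxidoreductase whose human counterpart spans a common fragile site, was among the 5 genes with most reproducible clusters. It lies at chr8:114439635-115352712 on the plus strand, a span of 913 kb. It held 470 clusters in replicate 1 and 537 in replicate 2, of which 75 (16.0%) and 58 (10.8%) were enriched and 54 and 53 reproducible. Per Mb of span this is 59.1 and 58.0 reproducible clusters. Its rank depends on touching clusters being counted singly. Joined where they touched, Wwox had 31 and 32 regions, fewer than Prkg1 with 37 and 38, Mast4 with 34 and 35 and Ptprg with 32 and 33. The genes closest to Wwox in enriched share were Rora, at 14.6% and 10.5%, Mast4, at 12.3% and 12.4%, Ptprg, at 12.9% and 11.04%, Celf2, at 14.4% and 9.27%, and Ptprm, at 14.5% and 9.01%. The order of these 6 genes differed between replicates. The list of fragile site genes as a whole, which includes Wwox and Rora, did not share this level. Of 20 mouse counterparts of human fragile site genes, 16 held a reproducible cluster, and 6.25% and 4.47% of their clusters were enriched, below the share of all long genes. Within that list Dlg2, a synaptic scaffold, had 3 and 2 reproducible clusters among 300 and 332, and Macrod2, an ADP-ribose hydrolase, had 1 in each replicate among 199 and 187.

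Clusters in Wwox were concentrated in the middle of the gene. With the span divided into 10 equal bins, numbered from the 5′ end, bins 1 to 10 held 28, 21, 10, 119, 84, 79, 60, 46, 20 and 3 clusters in replicate 1, and 34, 21, 11, 142, 109, 92, 58, 43, 25 and 2 in replicate 2. Reproducible clusters numbered 1, 2, 1, 17, 7, 5, 15, 6, 0 and 0 in replicate 1, and 1, 2, 2, 16, 5, 6, 15, 6, 0 and 0 in replicate 2. Bins 4 and 7 thus held the most reproducible clusters in both lysates, and bins 9 and 10 held 0. Joined where they touched, they formed 31 and 32 regions that covered 0.824% and 0.838% of the span, with a median gap of 8.49 and 7.90 kb and a longest gap of 124 kb in each replicate. The densest 50 kb, centred 299 kb from the 5′ end, held 15 and 16 of the reproducible clusters (27.8% and 30.2%). Outside it 13.1% and 8.89% of the clusters of Wwox were still enriched. The strongest pair of overlapping clusters lay far from it, at chr8:115070130-115070266, 631 kb or 69.1% into the span, with log2 folds of 5.91 and 5.67.

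Other genes held single sites that were stronger. The strongest pair of all was in Sox5, where replicate 1 had a fold of 7.05 and replicate 2 a fold of 6.97 at 16.0 kb from the 5′ end. Auts2 had a pair at chr5:131755403-131755645, 71.2% into its span, with folds of 6.83 and 6.38, although 5.94% and 4.90% of its clusters were enriched, near the share over all long genes. A pair in Gpc6 at chr14:116970775-116970978, 4.36% into the span, had folds of 6.40 and 6.22. Dock2, a guanine nucleotide exchange factor of leukocytes, held only 5 and 4 reproducible clusters but a pair with folds of 6.08 and 5.93 at chr11:34681697-34681790.

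**Figure D3:**
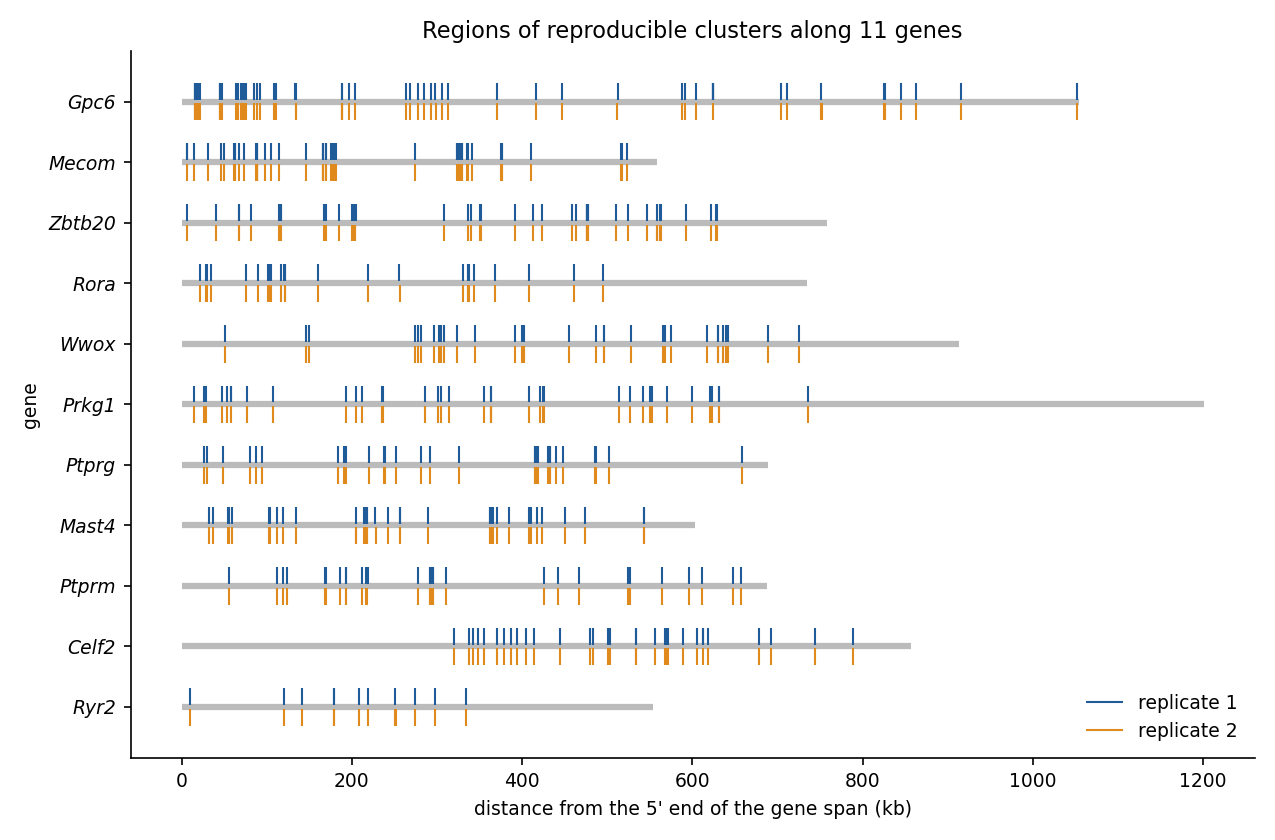
Regions of reproducible clusters (vertical ticks, replicate 1 above and replicate 2 below each line) against distance from the 5′ end of the gene span in kb (x axis), for the 10 genes with most reproducible clusters and Ryr2. The ticks of the 2 replicates coincide because a reproducible cluster overlaps one of the other replicate, and Celf2 has none before its internal start at 315 kb.

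In Ryr2 the reproducible clusters were packed into short stretches. This packing was noticed after the values were seen. Over the whole gene the median log2 fold was only 0.08 and 0.18. Within 43.4 kb at chr13:11855575-11898967, however, 34 clusters in replicate 1 and 36 in replicate 2 had median folds of 4.78 and 3.62. The stretch runs from the first to the last reproducible cluster of the 50 kb that held most of them. Its high folds and the lower enriched share elsewhere thus follow in part from that choice. This stretch held 6.49% and 6.74% of the gene's clusters but 27 of its 41 reproducible clusters in replicate 1 (65.9%) and 21 of 37 in replicate 2 (56.8%). Elsewhere in the gene 5.92% and 4.22% of clusters were enriched. The reproducible clusters there joined into 3 of the gene's 11 regions in replicate 1 and 4 of its 12 in replicate 2. The packing was thus weaker by region than by cluster. The widest of these regions were 683 and 663 nt long. They lay in the middle of the gene, with the median enriched cluster 37.6% into the span in each replicate, while the median of all Ryr2 clusters was at 14.8% and 13.9%.

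Ptprg held a similar but less dense stretch of 33.5 kb at chr14:11968649-12002104, with 20 and 17 of its reproducible clusters (40.8% and 34.0%). Its median folds were 3.22 and 2.605, and it was chosen in the same way, by its reproducible clusters. Lama2 had 52.2% and 59.1% of its reproducible clusters in its densest 50 kb, centred 46.0 kb from the 5′ end in each replicate. In Gpc6, by contrast, the densest 50 kb held 26.5% and 29.4%, and the reproducible clusters formed 57 regions in each replicate with a median gap of 6.50 and 6.51 kb. Pde4d left a stretch of 688 kb without any between neighbouring regions.

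Along the span, clusters were more frequent toward the 5′ end in long genes. Bin 1 of 10 held 14.7% and 14.6% of the clusters and bin 10 held 6.01% and 5.92%. In genes of 100 to 500 kb bin 1 held 12.6% and 12.8% and bin 10 held 7.77% and 7.57%. Genes of 20 to 100 kb had 9.71% and 9.59% in bin 1 and 12.6% and 12.5% in bin 10, and genes under 20 kb had 6.37% and 6.16% in bin 1 and 18.8% and 18.6% in bin 10. Bin 1 thus held more clusters than bin 10 in both classes over 100 kb and fewer in both classes under it, in each replicate. Of the 123 long genes with 50 clusters in each replicate, 84 had more clusters on the 5′ side of the span's midpoint than on its 3′ side in both replicates.

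**Figure D4:**
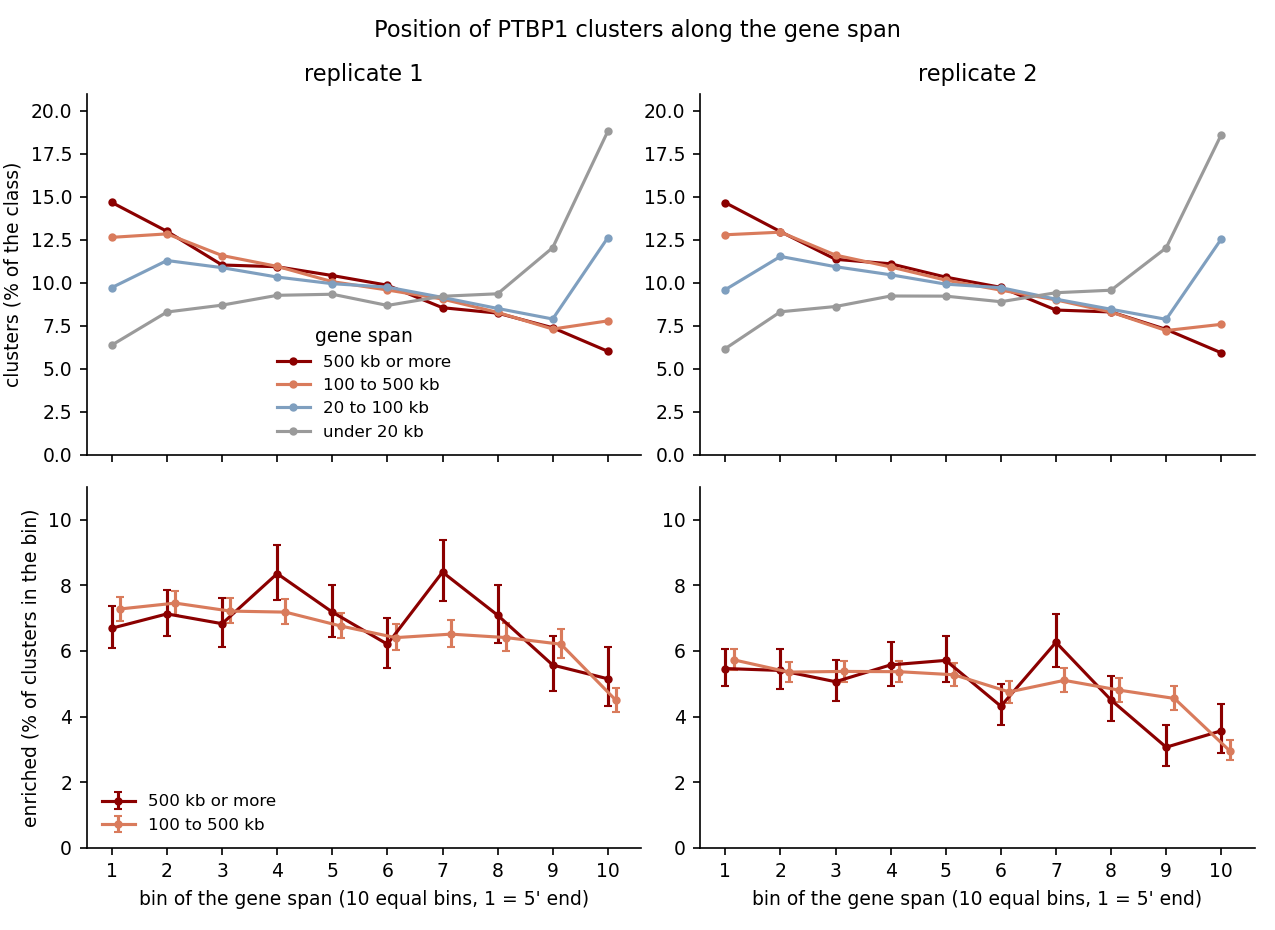
Share of clusters in 10 equal bins of the gene span, from the 5′ end (x axis), for 4 classes of span length (upper row, percent of the class), and share of clusters in each bin that were enriched with 95% Wilson intervals (lower row, percent) for the 2 longest classes, one column per replicate. In genes of 500 kb or more, 14.7% and 14.6% of clusters lie in bin 1 and 6.01% and 5.92% in bin 10, and in genes under 20 kb 6.37% and 6.16% lie in bin 1 and 18.8% and 18.6% in bin 10.

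In absolute distance, the 204 long genes with a known strand averaged 36.9 clusters in their first 100 kb in replicate 1 and 38.4 in replicate 2. In the 100 kb that ended 500 kb from the 5′ end, the same genes averaged 19.99 and 21.1. The 53 genes of at least 1 Mb averaged 27.7 and 29.2 in the first 100 kb, and 11.5 and 12.1 between 900 and 1000 kb.

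The share of clusters that were enriched varied less along the span than their number did. In replicate 1 it was 6.69% in bin 1, highest at 8.40% in bin 7 and lowest at 5.15% in bin 10. Replicate 2 had 5.46% in bin 1, its highest value of 6.26% also in bin 7, and its lowest of 3.07% in bin 9. On the 5′ side of the midpoint 7.20% and 5.44% were enriched, and on the 3′ side 6.58% and 4.43%. Bin 10 held 4.45% and 4.19% of the enriched and 6.12% and 6.01% of those not enriched. Single genes went both ways: of the 72 and 62 genes with at least 10 enriched clusters, 45 and 38 had the higher enriched share on the 5′ side.

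Some genes had almost no clusters over a long first stretch of the span. In Celf2, 1 of 576 clusters in replicate 1 and 3 of 604 in replicate 2 lay before 315 kb, where the RefSeq promoter table has a transcription start. In the 100 kb after that start there were 137 and 133 clusters, and in the 100 kb before it 0 and 2. Rbms3 had 154 clusters in each replicate in the 100 kb after an internal start at 377 kb, and 3 and 2 in the 100 kb before it. Lsamp had 96 and 112 after an internal start at 1549 kb and 1 in each replicate before it, and 14 of its 331 clusters in replicate 1 and 7 of its 355 in replicate 2 lay upstream of that start. In Ptprd, for which no start was used here, 5% of the clusters lay within the first 1767 and 1771 kb. In Celf2, Rbms3 and Lsamp the bins count from the 5′ end of the span and not from these internal starts.

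Rora and Ptprg showed the opposite arrangement, with 540 of 623 and 583 of 703 clusters of replicate 1 on the 5′ side of the midpoint, and 585 of 668 clusters of Rora in replicate 2. Zbtb20 was more even, with 254 clusters on the 5′ side and 339 on the 3′ side in replicate 1. Clusters on the strand opposite to the gene were counted in the 204 long genes whose strand was read from their own clusters. They were rare, at 0.127% and 0.102%, and 0 of them were enriched. Requiring most clusters of a gene on the same strand itself keeps this share low. The 12 long genes without such a strand were not counted. Among these was Kcnip4, whose reproducible pair lay on the plus strand with folds of 4.40 and 3.39. No cluster overlapped any of the 26 miRNA hairpins that the RefSeq table places in long genes.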

How the data were processed

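PTBP1 eCLIP of whole heart was deposited as 1 table of clusters per replicate. Per the file headers, its columns include a log2 fold and a −log10 p-value for every cluster, both computed by the authors before they deposited them. The −log10 p stops at 400 and is 0 for every negative fold. STAR 2.6.0c, UMI-tools 0.5.1 and cutadapt 2.7 are listed, with the builds mm10 and hg38, in the submitters' processing notes without any role. For the cluster caller and its test, nothing is given in the sources used here. Read counts and library totals were not used, so depth is unknown and single folds carry no interval. Of the folds in long genes, 69.2% in replicate 1 and 67.0% in replicate 2 equalled log2 of a whole number up to 64 minus a constant (tolerance 0.0005), so low folds take few distinct values.

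The files count from 0, and coordinates are printed from 1 on GRCm38 (mm10). Clusters were placed by midpoint with RefSeq gene spans of GRCm38.p6, which hold no exons, so exonic and intronic clusters were not separated. Strand was read from a gene's own clusters (at least 3, with at least 90% on 1 strand). This oriented 204 genes, and in all 161 of them that the promoter table also holds it was the same strand. Python 3.11.15, pandas 2.3.3, NumPy 2.4.6 and SciPy 1.17.1 were used, and the counting was tested on simulated tables. Shares have 95% Wilson intervals. No test between conditions was possible with 2 lysates of 1 condition.

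The members, thresholds, gene lists and alternatives were chosen with earlier results of these data known. Genes were named by rule: the 10 with most reproducible clusters, the 5 highest and 5 lowest enriched shares (ties broken by more clusters) and the 5 highest densities of reproducible clusters among genes with 50 clusters in each replicate, the 5 longest of these, Wwox and the 5 closest to it in enriched share, up to 3 members per list, and the 5 strongest pairs. Leaving the leading member out of a gene list was added after seeing the data. Other genes were chosen after their values were seen, including Khdrbs2, Foxp1, Pard3b and Camta1.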

Additional observations from a re-analysis of the deposited data

Results flagged for a closer look

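Clusters whose midpoint lay in a long span and also in another protein-coding span were left out of the comparisons, 1040 in replicate 1 and 1136 in replicate 2. They were looked at because reproducible clusters occurred among them: 20 in replicate 1 and 22 in replicate 2. Of these clusters, 4.23% and 2.90% were enriched, against 6.94% and 5.03% of the clusters kept in long genes. Which gene they belong to was not tested.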

How the results depend on the processing

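Of 61 recomputed shares, medians and densities, 34 moved by no more than 1 SD of the replicates and 27 moved by more. This SD rests on 2 values and differed widely, from 0.008 percentage points for bin 1 to 1.35 for the enriched share. These counts therefore do not measure how robust a result is. A change of sign, counted at 0, is possible only for the medians, because shares and densities cannot be negative. Of 12 recomputed numbers of reproducible clusters, against 1701, 9 stayed within 1.5 times and 3 did not; among the 9 were 2394 at a span minimum of 400 kb, 1314 at a −log10 p of at least 5 and 1200 with touching clusters joined. The mean of both replicates was 5.99% for the enriched share, 14.7% of clusters in bin 1 of 10, 4.32% of enriched clusters in bin 10, 70.6% of enriched clusters reproducible and 58.6 reproducible clusters per Mb in Wwox. With a log2 fold of at least 2, the enriched share was 8.26%, reproducible clusters of replicate 1 numbered 2682, bin 10 held 4.61% and Wwox had 78.3 per Mb. With a fold of at least 4 these were 2.51%, 546, 3.70% and 20.8, and 55.4% of enriched clusters were reproducible. With a −log10 p of at least 5 the enriched share was 4.26%, bin 10 3.90% and Wwox 50.9. A span minimum of 400 kb gave 4.04% in bin 10 and 14.4% in bin 1, and one of 1 Mb gave 4.06%, 14.6% and 436 reproducible clusters, with no value for Wwox. Without clusters in noncoding spans bin 10 held 4.51%, bin 1 held 14.8%, and Wwox had 57.5. With touching clusters joined these were 4.90%, 14.5% and 38.3, and the enriched share fell to 4.76%, which counted as within 1 SD. Strand from RefSeq, an alternative chosen after seeing the data, gave 4.66% in bin 10 and 15.1% in bin 1. Averaging over genes, also added then, gave an enriched share of 4.59% and 14.8% in bin 1. Leaving out Gpc6 gave 14.4% there. An overlap of 10 nt gave Wwox 56.4, and an overlap of 50% of the shorter cluster 55.9. The cause of these shifts was not tested.

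With 1 replicate left out at a time, the enriched share was 5.03% to 6.94%, the median log2 fold 0.62 to 0.74, bin 10 4.19% to 4.45% and bin 1 14.6% to 14.7%. With 2 replicates this only restates the value of each. Reproducible shares, numbers and densities need both replicates and were not recomputed this way. No paired analysis was possible because each deposited fold already sets an immunoprecipitate against the input of its own lysate, and no test was run. Without read counts, no limit of detection could be set for a cluster.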

Other observations

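Of the 93 long genes with under 50 clusters in at least 1 replicate, 6 held a reproducible cluster: Adarb2, Cadm2, Dlgap2, Kcnip4, Khdrbs2 and Marchf1. In Khdrbs2 3 of the 4 replicate 1 clusters were reproducible, and in Dlgap2, a postsynaptic scaffold gene, 2 of 3. Genes just over the span minimum, the 31 of 500 to 550 kb, had 7.49% of clusters enriched in replicate 1 and 5.71% in replicate 2, and the 53 genes just under it, of 450 to 500 kb, had 5.43% and 3.93%. Members that also lay in a lncRNA span, 2549 and 2713 clusters, were 5.22% and 4.20% enriched.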
